A study of Mus musculus with 3 samples.

Results

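The genes of the kinesin motors and their light chains, the cytoplasmic dynein 1 subunits and dynein light chains, dynactin, the tubulins and the stathmins were followed in a comparison of early mouse kidney tissues. Members were taken by symbol from the platform's gene annotation, and 75 symbols matched the families. Tubb3, Kif11, Kif20a and Kif23 were left out by name, and 68 of the remaining 71 had a value on all 3 arrays, out of 14047 genes with such values in all. The arrays were two-colour long-oligonucleotide arrays of the Compugen mouse set. Each array compared metanephric mesenchyme at 10.5 days post coitum with metanephroi at 11.5 days, both microdissected. Both tissues came from normal CD1 embryos, pooled over the sexes, and were hybridised as amplified RNA. The labels give the dyes as red/green for arrays 1 and 2, and as green/red for array 3.

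Each value is a log2 ratio of the 2 channels of an array, and the sources used here do not give the numerator. The 2 signs therefore stand for opposite sides of the comparison, and neither is assigned to a tissue. A log2 ratio of 1 in size is a 2-fold difference. Levels cannot be read from ratios, so the abundance of a transcript and its distance from background are unknown. In whole tissue, a different share of a cell type and a different amount of RNA per cell cannot be told apart. The labels do not say whether the arrays came from separate dissections, and the spread between them may be technical.

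Microtubules are polymers of alpha and beta tubulin dimers. Gamma tubulin nucleates them, and stathmins bind free dimers. Most kinesins carry cargo towards the growing end of the microtubule, dynein with its cofactor dynactin moves towards the other end, and a set of kinesins builds the mitotic spindle. In the developing kidney these proteins serve the dividing cells of the mesenchyme and ureteric bud, and the primary cilium, whose loss in renal epithelium leads to cysts in the mouse.

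Across the 68 genes the ratios lay mostly on the negative side. The mean of the 3 arrays was negative for 45 members, or 66.2% against 50.2% of all genes, and positive for 23. The median of the members' means was -0.20, against 0.00 (-0.0019) over all genes. The median was negative on every array, at -0.16 on array 1, -0.24 on array 2 and -0.24 on array 3, against 0.04, 0.04 and -0.06 over all genes. Negative values on all 3 arrays were found for 28 members, which is 41.2%, against a background of 22.5% of all genes. Positive values on all 3 arrays were found for 6 members, or 8.82%, against 22.9% of all genes.

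The mean ratio was tested against 0 with limma over all genes. After Benjamini-Hochberg adjustment 0 of 68 members and 0 of 14047 genes passed 0.05, a background of 0%, with a lowest adjusted value of 0.149. Members with an unadjusted p under 0.05 numbered 17. Of these 14 were negative, which is 20.6% of the members against a background of 9.69% of all genes. The other 3 were positive, which is 4.41% against a background of 9.89%. These shares describe the list and are not a test of it. Without array 3 the counts were 7 negative and 5 positive of the 68, where 9.28% and 11.7% of all genes were past the threshold. There the negative count was near the background and the positive count below it. They were 7 and 2 without array 1, with 4.38% of all genes negative and 3.85% positive, and 8 and 1 without array 2, with 5.43% of all genes negative and 4.91% positive.

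**Figure D1:**
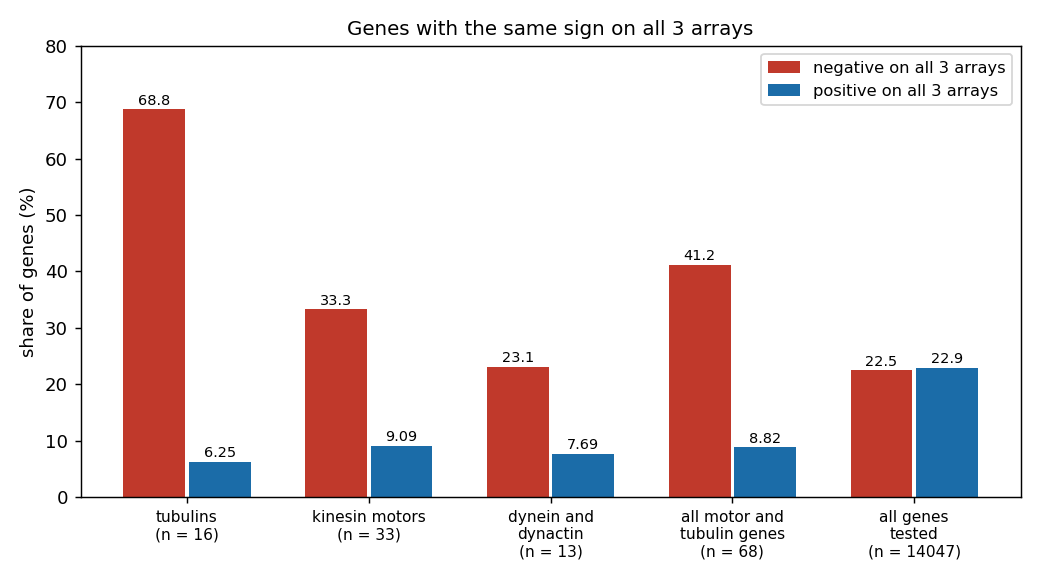
Share of genes, in percent, with a negative (red) or a positive (blue) log2 ratio on all 3 arrays, for the tubulins, the kinesin motors, dynein and dynactin, all 68 motor and tubulin genes, and all 14047 genes. The tubulins stood at 68.8% negative and 6.25% positive, against 22.5% and 22.9% of all genes.

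Array 3 had the opposite dye order, and whether its deposited ratios were already turned is not stated. Arrays 1 and 2, which run the same way, had the same sign for 51 members, 37 negative and 14 positive. Both were thus negative for 54.4% of the members, against 32.7% of all genes. Array 3 as deposited shared the sign in 34 of the 51, or 66.7%, against 63.9% over all genes. With array 3 as deposited, 9.69% of all genes were negative and 9.89% positive past an unadjusted p of 0.05. Turned the other way, array 3 left 1 negative and 2 positive members past an unadjusted p of 0.05, with 2.47% of all genes negative and 3.08% positive, and a member median of -0.04. None of the 17 members kept its place there, and Kif22 and Klc4 changed side, to 0.0098 and 0.061. In all, 24 of the 68 members changed sign, and the share of all genes that did so was not counted. A gene with like signs on the arrays as deposited must lose size when 1 array is turned.

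**Figure D2:**
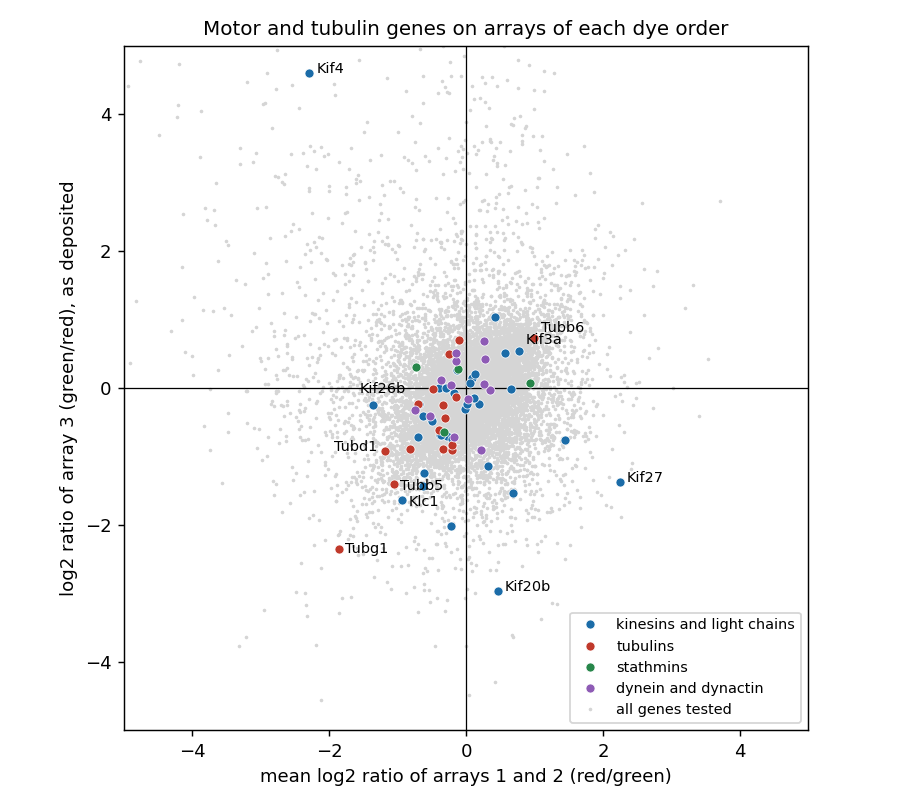
Mean log2 ratio of arrays 1 and 2 (red/green) on the x axis against the log2 ratio of array 3 (green/red, as deposited) on the y axis, with 1 coloured point for each of the 68 genes and grey points for all genes tested within 5 of 0 on both axes. Tubg1, Tubb5, Tubd1 and Klc1 sit at the lower left and Tubb6 and Kif3a at the upper right, while Kif27, Kif20b and Kif4 lie where array 3 differs in sign from the mean of arrays 1 and 2, which for Kif4 are themselves of opposite sign.

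The tubulins had the most one-sided ratios of the larger classes. Of 16 tubulin genes, 14 had a negative mean, or 87.5% against 50.2% of all genes. On all 3 arrays 11 were negative, which is 68.8% against 22.5% of all genes. The median of the 16 was -0.42. At an unadjusted p under 0.05 stood 5 negative tubulins, 31.2% against the background of 9.69%, and 1 positive tubulin, 6.25% against 9.89%.

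Tubg1, which encodes the gamma tubulin that nucleates microtubules at the centrosome, had the largest mean in size among the 68 members. Its log2 ratios were -2.02, -1.71 and -2.36 on arrays 1, 2 and 3. All arrays lay far on the negative side. The mean was -2.03 ± 0.32 (SD, n = 3), a 4.08-fold difference, with an adjusted p of 0.149 by limma. Tubd1, the gene of delta tubulin, a centriole component, had -1.28, -1.10 and -0.92. Its mean was -1.10 ± 0.18, with an adjusted p of 0.150 by limma. Tube1, the gene of epsilon tubulin, also of the centriole, was negative on every array at -0.34, -0.33 and -0.25, in a narrow range nearer to 0. All 3 minor tubulins were thus negative throughout, by very different amounts. With array 3 turned, Tubg1 had -0.46 and Tubd1 -0.48.

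Among the beta tubulins the isotypes lay on both sides. Tubb5, a beta tubulin of most dividing cells, had -0.99, -1.13 and -1.40, all 3 arrays strongly negative, with a mean of -1.17 ± 0.21. Tubb6 had 0.87, 1.11 and 0.73, the reverse sign on every array, with a mean of 0.90 ± 0.19. The arrays of the 2 isotypes did not come near each other, though the difference between them was not tested. The neuronal isotype Tubb2b had -0.32, -0.35 and -0.89, Tubb4a had -0.34, -0.30 and -0.43, and Tubb4b had -0.18, -0.22 and -0.84. These 3 genes were negative on every array and did not pass an unadjusted p of 0.05, though Tubb2b had 0.0380 with median centring and 0.0221 with a dye term. Tubb1, a beta tubulin of platelets and megakaryocytes, had 1.24, -1.65 and -0.90, and its arrays disagreed. Tubb3, the neuronal isotype outside the member list, had -0.59, -0.65 and -0.57.

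Of the alpha tubulins, Tuba3b had -0.83, -0.81 and -0.89, the tightest values of any member past the threshold, with a mean of -0.84 ± 0.04. Its near copy Tuba3a had -0.44, -0.36 and -0.62, with a mean of -0.48 ± 0.13. Both genes are known chiefly from testis, and as near-identical copies they may share hybridisation, which was not tested. In the widely expressed Tuba1a and Tuba1b array 3 stood apart in sign. Since array 3 is the single array with its dye order, array and dye order cannot be told apart. Tuba1a had -0.27 and -0.24 on arrays 1 and 2 and 0.50 on array 3, and Tuba1b had -0.14 and -0.05 against 0.70 on array 3. Their mean ratios of 0.00 (-0.0025) and 0.17 therefore average values of opposite sign. Tuba1c was close to 0 on all arrays, at -0.18, -0.12 and -0.13, and Tuba8 had -0.62, -0.35 and -0.01. Tuba4a had 2 probes, 1 with a mean of 0.12 and another with a mean of -1.21, whose arrays ran from -4.53 to 1.25.

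Promoters are shown for the 3 tubulins that were negative past an unadjusted p of 0.05 and hold the CCAAT box, a motif common in promoters of tubulin and cell cycle genes. The sequences are the 250 bases before the gene's start from RefSeq, in the GRCm38.p6 build, read 5′ to 3′ on the gene's strand. Capitals mark matches to CCAAT (the CCAAT box), which reads ATTGG on the opposite strand. They also mark TTTGAA, the core of the cell cycle genes homology region, which reads TTCAAA in reverse, and the GC box GGGCGG, in reverse CCGCCC.
Tubb5, chr17:35838302-35838551, minus strand: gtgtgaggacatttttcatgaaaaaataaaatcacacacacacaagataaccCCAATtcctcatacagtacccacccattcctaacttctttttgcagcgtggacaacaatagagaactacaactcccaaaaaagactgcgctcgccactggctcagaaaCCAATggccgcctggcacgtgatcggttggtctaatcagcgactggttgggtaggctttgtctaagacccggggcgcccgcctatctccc
Tuba3a, chr6:125286082-125286331, minus strand: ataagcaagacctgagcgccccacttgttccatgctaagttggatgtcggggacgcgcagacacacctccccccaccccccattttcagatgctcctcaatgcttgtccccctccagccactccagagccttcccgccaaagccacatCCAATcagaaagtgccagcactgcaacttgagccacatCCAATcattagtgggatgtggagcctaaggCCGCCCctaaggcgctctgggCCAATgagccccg
Tuba3b, chr6:145615713-145615962, plus strand: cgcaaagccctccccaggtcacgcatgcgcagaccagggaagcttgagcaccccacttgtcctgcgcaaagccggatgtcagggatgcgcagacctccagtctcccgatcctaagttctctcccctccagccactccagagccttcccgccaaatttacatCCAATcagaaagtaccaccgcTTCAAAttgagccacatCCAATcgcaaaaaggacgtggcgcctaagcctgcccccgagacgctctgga

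Tubb5 held 2 CCAAT matches, Tuba3a 3 and Tuba3b 2. In both Tuba3 promoters the CCAAT matches lie in the part nearer the start, and Tuba3b alone of the 3 had a TTTGAA match. CCAAT was found in these 250 bases in 7 of 13 tubulin promoters, or 53.8%, against 33.8% of all 32851 promoters and 35.0% of those of genes on all arrays. For GGGCGG the shares were 46.2% of the tubulin promoters, against 32.7% of all and 48.1% of those on the arrays. Of the 68 members 53 had a promoter in the table, with 59 entries, and 40.7% of these held CCAAT. A match is a description of these letters and not a binding site.

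The kinesin light chains, which link kinesin-1 to its cargo, were both negative on every array. Klc1 had -0.88, -1.01 and -1.63, with a mean of -1.17 ± 0.40. Klc4 had -1.06, -0.19 and -1.43, a wider spread, with a mean of -0.89 ± 0.63. Without array 1 the mean of Klc4 was -0.81 with an unadjusted p of 0.151 by limma, and without array 3 it was -0.62 with 0.144. The measured heavy chains, Kif5b and Kif5a, had arrays on both sides of 0, so no side can be read for them. Kif5b, the widely expressed heavy chain, had 0.90 and 0.46 on arrays 1 and 2 and -1.53 on array 3, so array 3 again stood apart in sign. Kif5a, a neuronal heavy chain, had -0.57, 1.40 and 1.03.

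Of the 11 transport kinesins, 2 were negative at an unadjusted p under 0.05, or 18.2% against 9.69% of all genes, and 1 was positive, or 9.09% against 9.89%, which is at the background. Kif3a, a motor subunit of the kinesin-2 that builds primary cilia, had 0.73, 0.80 and 0.55, with all arrays positive and a mean of 0.70 ± 0.13. Its partner subunit Kif3b had -0.36, -0.43 and 0.00, and the arrays of the 2 genes did not overlap. The alternative partner Kif3c lay around 0, at -0.05, 0.06 and -0.23. Kifap3, the non-motor subunit of the same complex, was again positive on every array, at 0.51, 0.66 and 1.48. Kif3a and Kifap3 were thus positive throughout, while Kif3b was mixed in sign and did not pass an unadjusted p of 0.05. Kif3a and Kif3b had 1 probe each. Without array 1 the mean of Kif3a was 0.68, with an unadjusted p of 0.0702 by limma, and without array 2 it was 0.64, with 0.0521.

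Kif1c, a vesicle motor of the kinesin-3 family, had -0.40, -1.0 and -0.71, with a mean of -0.71 ± 0.30. Its neuronal relative Kif1a, which carries synaptic vesicle precursors, had -0.63, -0.36 and -0.49, with a mean of -0.49 ± 0.14. Both were negative throughout, while the third of this trio, Kif1b, stayed near 0 at -0.18, -0.08 and 0.27. Without array 3, Kif1c had an unadjusted p of 0.0679 and Kif1a of 0.0707 by limma, and without array 2 they had 0.0823 and 0.0688. Without array 1 Kif1a had 0.174, and with a dye term 0.0525, and Kif1c had 0.0547 without moderation of the variances. The other 4 transport kinesins, Kif13b, Kif16b, Kif17 and Kif3c, had means between -0.11 and 0.06, and each had arrays on both sides of 0. The 2 probes of Kif16b, an endosome motor, had means of 0.13 and -0.01.

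**Figure D3:**
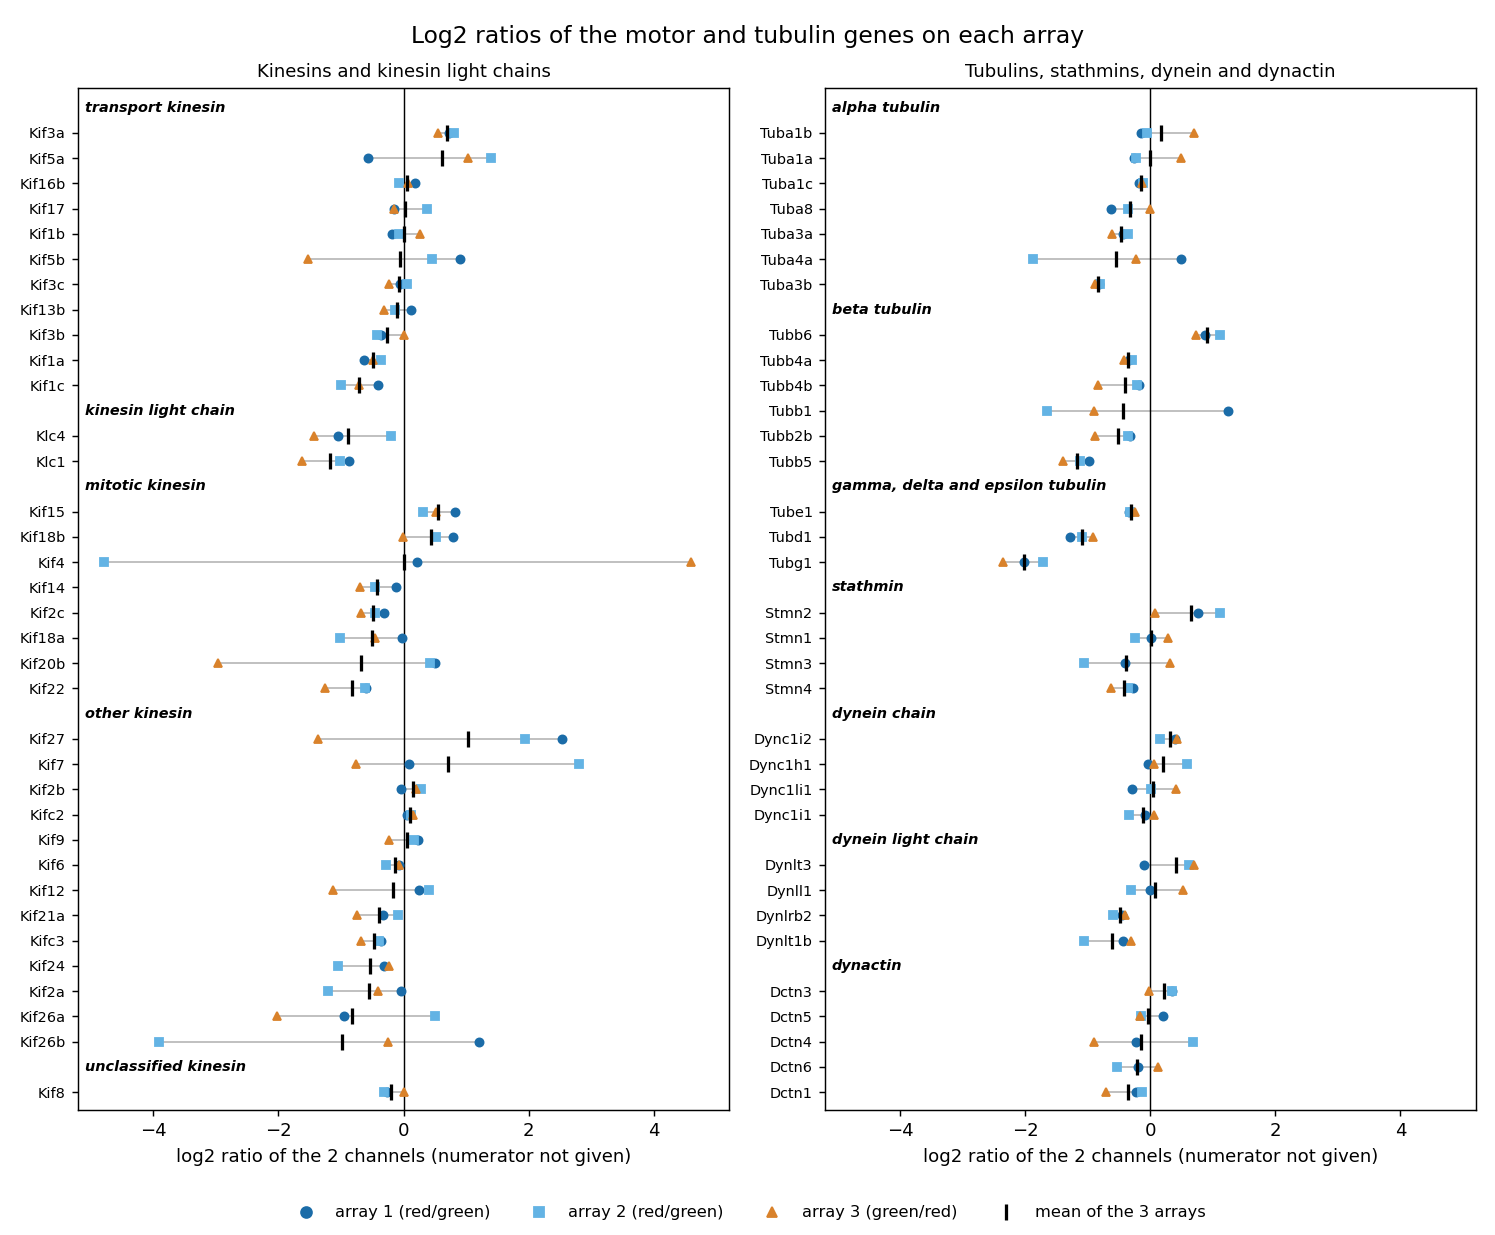
Log2 ratio of each of the 68 genes on array 1 (dark blue circles), array 2 (light blue squares) and array 3 (orange triangles), with the mean as a black bar and genes grouped by role; the x axis is the log2 ratio of the 2 channels, with 0 as a vertical line. Tubg1, Tubb5, Tubd1 and Klc1 have all 3 arrays near or beyond -0.9, Tubb6 and Kif3a have all 3 above 0.5, and Kif4 spans from -4.80 to 4.60.

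The 8 mitotic kinesins had a median of -0.45, and 5 of them had a negative mean, or 62.5% against 50.2% of all genes. At an unadjusted p under 0.05 there were 2 negative genes, or 25.0% against 9.69% of all genes, and 1 positive gene, or 12.5% against 9.89%. Kif22, a chromosome-arm motor that pushes chromosomes to the spindle equator, had -0.60, -0.62 and -1.25, with a mean of -0.82 ± 0.37. Kif2c, a microtubule depolymerase of the centromere, had -0.31, -0.45 and -0.69, with a mean of -0.48 ± 0.19. Kif14, needed for cytokinesis, and Kif18a, which limits chromosome oscillation, were also negative on every array, with means of -0.42 ± 0.29 and -0.50 ± 0.49, and did not pass the threshold. Without array 1 the unadjusted p of Kif22 was 0.0504 by limma. For Kif2c, leaving out an array gave 0.0997 to 0.116.

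Kif15, a spindle motor that works beside Kif11, was the positive member. Over its probes it had 0.83, 0.31 and 0.51, with a mean of 0.55 ± 0.26. Its 3 probes had means of 1.16, 0.53 and -0.04, so 1 of them did not show the difference. Taking the probe with the smallest spread gave 1.16, and without array 1 the mean was 0.41 with an unadjusted p of 0.187 by limma. Leaving out array 2 gave 0.0542, and leaving out array 3 gave 0.0886. A dye term gave 0.0726, and the test without moderation gave 0.0669. Kif11 itself, outside the member list, had -0.44, -0.39 and -0.71, and Kif20a had -0.12, -0.17 and 0.19. Kif23, also outside the list, had -0.52 on array 1 and -0.63 on array 3, with no value on array 2. Kif18b had 2 probes with means of 0.91 and -0.04, and the gene identifier of the first was not found in the RefSeq table.

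The promoters of Kif22 and Kif15 are shown because these spindle motors lay on opposite sides while both hold 2 TTTGAA matches, counting both strands, with capitals as above.
Kif22, chr7:127042421-127042670, minus strand: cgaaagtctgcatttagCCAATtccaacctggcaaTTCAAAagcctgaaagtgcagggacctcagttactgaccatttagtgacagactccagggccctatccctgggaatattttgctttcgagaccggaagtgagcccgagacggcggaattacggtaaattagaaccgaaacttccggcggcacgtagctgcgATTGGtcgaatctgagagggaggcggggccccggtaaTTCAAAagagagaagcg
Kif15, chr9:122950831-122951080, plus strand: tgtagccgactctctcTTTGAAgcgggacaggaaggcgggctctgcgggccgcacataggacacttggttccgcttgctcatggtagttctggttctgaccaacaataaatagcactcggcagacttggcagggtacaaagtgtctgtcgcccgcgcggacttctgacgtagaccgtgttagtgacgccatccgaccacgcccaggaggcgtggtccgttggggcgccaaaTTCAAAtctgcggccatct

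Of the 8 mitotic kinesin promoters 4 held TTTGAA, or 50.0%, against 16.0% of all promoters and 12.0% of those of genes on all arrays. Kif22 also held 2 CCAAT matches and Kif15 none in these letters.

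Genes of the G2 and M phases were set beside the mitotic kinesins. Of 15 measured, 4 were negative at an unadjusted p under 0.05, or 26.7% against 9.69% of all genes, and 0 positive, against 9.89%, with a median of -0.25. Ccna2 had -0.93 ± 0.07, Tpx2 had -0.70 ± 0.16, Aurka had -0.69 ± 0.17 and Ccnb2 had -0.46 ± 0.08. By sign alone the list was nearly balanced, with 6 genes negative on all 3 arrays and 5 positive, the 5 being Aurkb, Cenpf, Bub1, Ube2c and Mki67. The part of cell division in the ratios of the kinesins and tubulins was not tested.

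Among the 13 other kinesins 1 was negative past an unadjusted p of 0.05, or 7.69% against 9.69% of all genes, which is not above the background. In this class 0 were positive past it, against 9.89%. Kifc3, a minus-end-directed motor of epithelial junctions, had -0.35, -0.39 and -0.69, with a mean of -0.48 ± 0.18. Leaving out any array ended its place, with unadjusted p from 0.0938 to 0.118 by limma. Kif24 had -0.32, -1.06 and -0.23, and Kif21a had -0.33, -0.09 and -0.74, and neither passed. Kif2a, Kif6, Kif21a and Kif24 were negative on every array, with means from -0.55 to -0.14, and Kifc2 was positive on every array with a mean of 0.11 ± 0.05.

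Several kinesins with known parts in kidney or cilium biology had ratios that disagreed widely between arrays. Kif26b, which in the mouse is needed in the metanephric mesenchyme for its condensation around the ureteric bud, had 1.20, -3.92 and -0.25. Its mean of -0.99 ± 2.64 became 0.47 without array 2. Its relative Kif26a had -0.95, 0.50 and -2.02. Kif7, a regulator of hedgehog signalling at the cilium tip, had 0.08, 2.80 and -0.76. No side can be read for these 3 genes from the arrays.

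Kif27, the closest relative of Kif7, was high on arrays 1 and 2, at 2.53 and 1.95, and had -1.37 on array 3. Its mean was 1.04 ± 2.10 as deposited. It was 2.24 without array 3, with an unadjusted p of 0.00384 by limma, and 1.95 with array 3 turned the other way, with 0.00212. It was 0.29 without array 1, 0.58 without array 2 and 0.44 with a dye term, with p of 0.785, 0.651 and 0.129 by limma. Kif27 was 1 of the 3 members past the threshold with that array turned. Kif4, the chromokinesin, had 0.21, -4.80 and 4.60, and Kif20b had 0.50, 0.42 and -2.97. Of all members 10 had an SD over 1 across the arrays, or 14.7%, against 12.9% of all genes, and 8 of these 10 were kinesins.

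Cytoplasmic dynein stood close to 0. The heavy chain gene Dync1h1, whose product is the motor itself, had -0.05, 0.58 and 0.06. The intermediate chain gene Dync1i2 was positive on every array at 0.39, 0.16 and 0.42, with a mean of 0.32 ± 0.14. The other intermediate chain Dync1i1, of neurons, had -0.09, -0.34 and 0.05, and the light intermediate chain Dync1li1 had -0.30, 0.00 and 0.40. None of the 4 passed an unadjusted p of 0.05, and their median was 0.12.

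The dynein light chains were divided. Dynlrb2, a roadblock light chain, had -0.45, -0.61 and -0.41, with a mean of -0.49 ± 0.10. Dynlt1b, a Tctex light chain, had -0.44, -1.07 and -0.32, with a mean of -0.61 ± 0.40, and was just inside an unadjusted p of 0.05. Both were negative on all arrays, whereas Dynlt3 had -0.11, 0.62 and 0.69 and Dynll1, the hub light chain of many complexes, had -0.0014, -0.31 and 0.52. Dynlt1b lost its place under 8 alternatives besides the turned array, among them each array left out, with unadjusted p from 0.0623 to 0.154, and Dynlrb2 had 0.125 without array 1 and 0.115 without array 2 by limma. The Dynlt1 genes of the mouse are near-identical copies, so the probe may read more than 1 of them.

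In dynactin, the activator of dynein, 0 of 5 genes passed an unadjusted p of 0.05. Dctn1, the largest subunit, which holds dynein and the microtubule, was negative on every array at -0.23, -0.13 and -0.71. Dctn3 had 0.35, 0.34 and -0.02, and Dctn6 had -0.20, -0.54 and 0.12. The class spanned means from -0.36 to 0.22, and 4 of the 5 genes had arrays on both sides of 0.

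The stathmins also lay on both sides. Stmn2, a stathmin of growing axons, had 0.76, 1.11 and 0.07, positive on every array, with a mean of 0.65 ± 0.53. Stmn4, another neuronal member, had -0.28, -0.37 and -0.64, negative on every array, with a mean of -0.43 ± 0.19. Stmn1, the stathmin of dividing cells, stayed at 0.01, -0.25 and 0.27, and Stmn3 had -0.41, -1.07 and 0.31. None of the 4 passed an unadjusted p of 0.05 as deposited. Without array 3 Stmn2 had 0.94 with an unadjusted p of 0.0190 by limma, and with a dye term Stmn4 had -0.48 with 0.0412.

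Neuronal members did not lie on 1 side. Kif1a, Tubb2b and Stmn4 were negative throughout, Stmn2 positive, and Kif5a, Stmn3 and Dync1i1 mixed. Of 15 measured neuron and neural crest genes, Dcx, a microtubule binding protein of young neurons, was positive at 1.40 ± 0.29, the neurofilament-related Ina was negative at -0.61 ± 0.13, and the other 13 did not pass an unadjusted p of 0.05. That left 6.67% past it on each side, against 9.89% of all genes positive and 9.69% negative. The median was -0.14, and the part of neurons in the members' ratios was not tested.

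The motors' partners outside the member list were described from 71 cofactor genes in 4 groups, of which 49 had values on all arrays. At an unadjusted p under 0.05 there were 7 negative, or 14.3% against the background of 9.69%, and 4 positive, or 8.16% against 9.89%. The count of 11 was 6 without array 1 and 6 without array 2, 17 with a dye term and 3 with array 3 turned.

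Dynein regulators had a median of -0.64 over 9 genes, 8 of them with a negative mean, or 88.9% against 50.2% of all genes. Only 3 of the 9 were negative on every array, or 33.3% against 22.5%, and 6 had arrays on both sides of 0. Hook1, Bicd2 and Ndel1, with SDs of 2.18, 1.59 and 1.74, were among these 6. Past the threshold 2 were negative, or 22.2% against 9.69%. Pafah1b1, the gene of LIS1, which holds dynein on the microtubule, had -0.55, -0.83 and -0.36, and its partner Nde1 had -0.66, -0.70 and -0.54. Both were negative on every array, with means of -0.58 ± 0.24 and -0.64 ± 0.08. The dynein chains themselves were near 0, and the difference was not tested. The other partner of LIS1, Ndel1, had -1.06, -2.76 and 0.72, with arrays on both sides. Of the kinesin adaptors, Mapk8ip3, which links cargo to kinesin-1 and dynein, had -0.67, -0.97 and -0.99, and Kifap3 was positive as given above.

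In tubulin folding, nucleation and modification 2 of 15 genes were negative and 2 positive past the threshold, 13.3% each way, near the backgrounds of 9.69% and 9.89%. Tbcd, a folding cofactor of beta tubulin, had a mean of -0.56 ± 0.05, and Tubgcp2, a subunit of the gamma tubulin ring complex, had -0.45, -0.54 and -0.66, with a mean of -0.55 ± 0.11. Tubgcp2 lay on the side of Tubg1, with a much smaller ratio. Other nucleation genes of the list were not negative throughout. Mzt1, at 0.32, 0.25 and 0.29, and Mzt2, at 0.24, 0.32 and 0.60, were positive on every array. Tubgcp4 and Nedd1 had arrays on both sides of 0, and none of these others passed an unadjusted p of 0.05. Tbce, a folding cofactor of alpha tubulin, had 0.94, 1.15 and 2.43, and Ttl, which adds tyrosine back to alpha tubulin, had 0.80, 0.69 and 0.76. Of the microtubule-associated proteins, Tacc1 had -1.22 ± 0.60 and Mapt, the gene of tau, had -0.54 ± 0.08. Clip1, which tracks growing ends, had 0.75, 1.13 and 1.25, with a mean of 1.04 ± 0.26. All the cofactor genes given with a mean in these 2 paragraphs were past an unadjusted p of 0.05, and none passed adjustment, with a smallest adjusted p of 0.157 by limma.

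**Figure D4:**
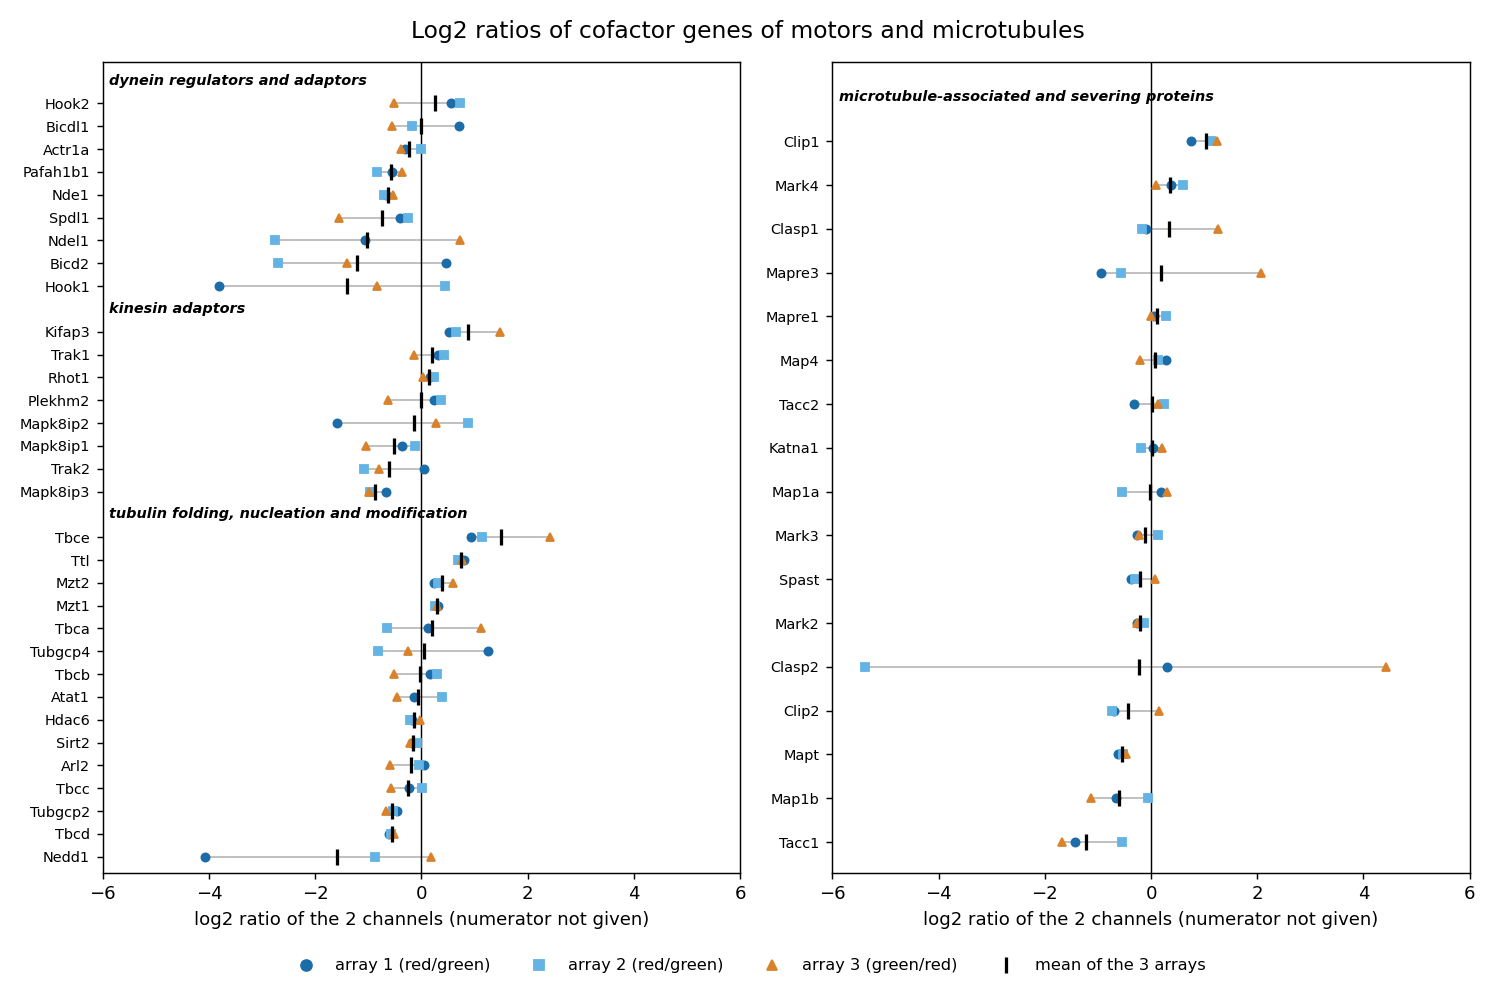
Log2 ratio of 49 cofactor genes of motors and microtubules on array 1 (dark blue circles), array 2 (light blue squares) and array 3 (orange triangles), with the mean as a black bar; the x axis is the log2 ratio of the 2 channels. Nde1, Pafah1b1, Mapk8ip3, Tbcd and Tubgcp2 have all arrays below 0, and Kifap3, Ttl, Tbce and Clip1 have all arrays above 0.

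Markers of the tissues and of cells that may lie beside them were read on the same arrays. All 4 stroma genes were positive at an unadjusted p under 0.05, against 9.89% of all genes, with Foxd1 at 1.56 ± 0.17. Of 10 metanephric mesenchyme genes, Wt1 at 1.75 ± 0.04 and Cited1 at 0.86 ± 0.29 were positive past it, or 20.0% against 9.89%. In this list 0 genes were negative past it, against 9.69% of all genes. Hoxa11 and Osr1 were negative on every array at means of -0.36 and -0.36, and the list median was 0.12. Of 6 ureteric bud genes, Calb1 was positive past that threshold at 1.16 ± 0.10 and Ret negative at -0.43 ± 0.11, or 16.7% each way. Of these 6, 4 were positive on every array, or 66.7% against 22.9% of all genes, and the median was 0.22. All 7 endothelial genes had negative values on every array, against 22.5% of all genes, with a median of -0.43. Of these, 5 passed that threshold, or 71.4% against 9.69% of all genes. Of 9 somite and muscle genes 4 were negative past the threshold, or 44.4% against 9.69%. In the same list 1 was positive, or 11.1% against 9.89%, which is near the background. The muscle median was -0.78, with Acta1 at -4.96 ± 0.92. The part of endothelial and muscle cells in the members' negative ratios was not tested. Only 3 of 8 genes of multiciliated cells were measured, and none passed.

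The 17 members past an unadjusted p of 0.05 differed in how far they depended on the processing. Tubg1, Tubd1, Tubb5, Tuba3b, Klc1 and Tubb6 stayed past it under 12 of 13 alternatives, the exception being array 3 turned the other way. Under that alternative their means came nearer to 0, with Tubg1 at -0.46, Tubd1 at -0.48, Tubb5 at -0.24, Tuba3b at -0.25, Klc1 at -0.09 and Tubb6 at 0.41. Each of these genes had 1 probe with a value on all arrays. The other ways of joining probes, and values on at least 2 arrays, therefore left their ratios unchanged and tested little. Tuba3a lost its place with any array left out, with unadjusted p from 0.0795 to 0.14 by limma.

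**Figure D5:**
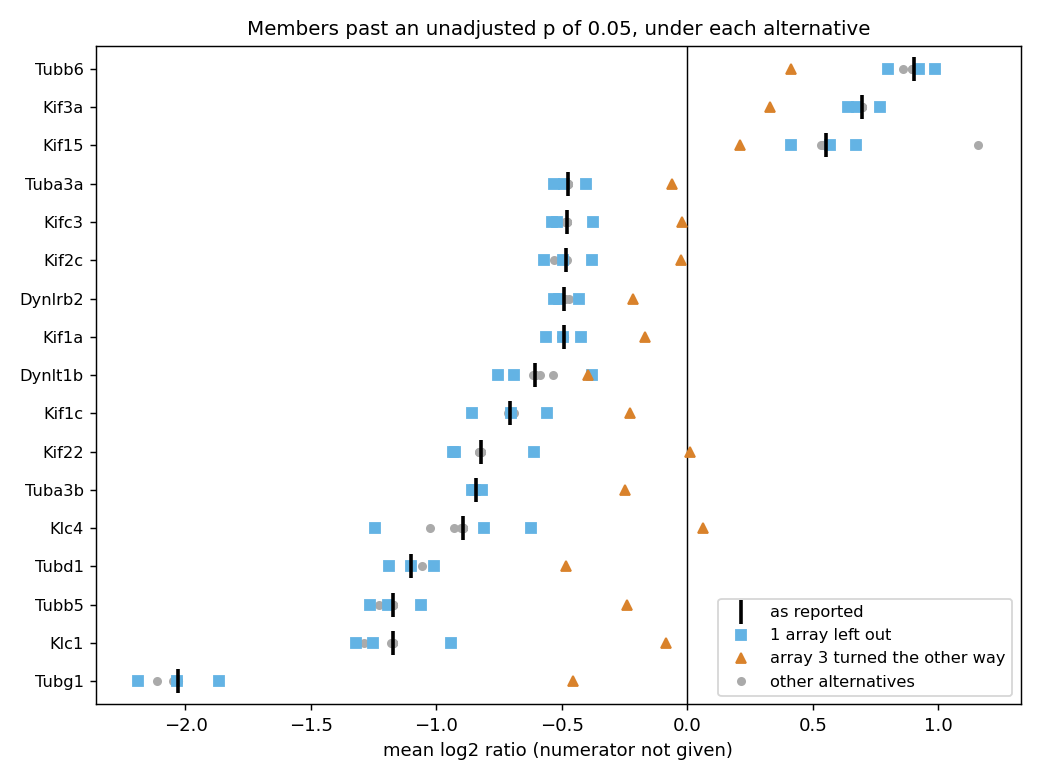
Mean log2 ratio on the x axis of the 17 members past an unadjusted p of 0.05, as reported (black bar), with 1 array left out (blue squares), with array 3 turned the other way (orange triangles) and under the other alternatives (grey points). Each of the 17 had the same sign on all 3 arrays, so leaving out an array could not move a mean across 0. Turning array 3 moved Kif22 to 0.0098 and Klc4 to 0.061.

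The 3 members without a value on array 2 were Dctn2, at 0.83 on array 1 and 0.06 on array 3, Kif13a, at 0.26 and -1.19, and Kif19a, at -0.07 and 3.91. Kif8 had -0.27, -0.32 and 0.00, and its gene identifier, like those of Kif20b and of 1 Kif18b probe, was not found in the RefSeq table. None of these 3 genes was among the 17 past an unadjusted p of 0.05. Of the 5 members with more than 1 complete probe, 4 had probe means of opposite sign, and over all genes 53.8% of 916 did.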

How the data were processed

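The data were log2 ratios on 3 two-colour arrays. Per the labels' descriptions, the authors read spots with Imagene 5.5 and normalized the log2 ratios with print-tip lowess followed by a between-array step in R. A lowess fit used 20% of the data at each point, and control channel values under 10 were set to 10, which can make low spots extreme. The log base is not stated and was taken from the lowest deposited value, -6.64, the log2 of 0.01, at which 0 member values lie. Neither the numerator nor a genome build is given in the sources used here. The number of arrays limits the precision.

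Of 22702 rows, 883 spots other than the Compugen gene probes were left out, some of which carry a gene symbol in the platform annotation. The 16656 probes with 1 symbol were averaged per gene over probes with a value on all arrays, giving 14047 genes. In limma 3.58.1 (R 4.3.3), lmFit and eBayes gave a two-sided test of each gene's mean ratio against 0, adjusted over all genes by Benjamini-Hochberg. Unadjusted p under 0.05 was used to describe members beside its share of all genes. Values after ± are SDs over 3 arrays. Array 3 was used as deposited, since across genes it had weak positive correlations with arrays 1 and 2 (Pearson 0.0644 and 0.0219, Spearman 0.258 and 0.208), and was turned as an alternative. The test was checked on simulated data.

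Genes were named by a rule: members past an unadjusted p of 0.05 or with a mean of 1 or more in size, per role class the 3 of smallest p and the extremes, and cofactor genes past that p. Other members, other cofactor genes, and marker genes given as examples, were named after their values were seen. Members and lists were chosen with earlier results of these data known. Of 75 member probes 72 matched RefSeq by gene identifier, 0 with another symbol. Alternatives were median centring, scaling, a dye term, array 3 turned, robust and unmoderated variances, limited extremes, other ways of joining probes, values on at least 2 arrays, and each array left out. Figures used Matplotlib 3.10.9 under Python 3.11.15.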

Additional observations from a re-analysis of the deposited data

How the results depend on the processing

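Of the 13 alternatives run, all gave 0 genes past an adjusted p of 0.05 by limma, with 1389 positive and 1361 negative genes past an unadjusted 0.05 as reported. The count of negative members was 14 as reported, 1 with array 3 turned, and 7 to 8 when single arrays were dropped. Without array 3 it was 7 of the 68, near the 9.28% of all genes. The 3 positive members became 1 to 5 when single arrays were dropped. The members' median was -0.20, -0.0404 for array 3 turned, and -0.22 to -0.15 over the dropped arrays. Cofactor genes past the threshold numbered 11, with 17 under a dye term, 3 with array 3 turned and 6 to 13 over the dropped arrays. With array 3 turned, the sign changed for 24 of the 68 members, a count not made over all genes. Among the 36 followed singly it changed for Dctn1 to 0.11, Kif21a to 0.11, Kif22 to 0.0098, Klc4 to 0.061, Tubb2b to 0.073, Dynlt3 to -0.060 and Tuba1b to -0.30. Dropping single arrays gave -2.09 to 0.47 for Kif26b, positive without array 2, and -0.0984 to 0.32 for Tuba1b, negative without array 3. The cause was not tested. Fits without an array rest on 2 arrays. No paired analysis was possible because there is a single group of arrays, with no other group to share replicate numbers, and each ratio already pairs the tissues of its array. Of the 17 members, a dye term ended the place of 3 and the test without moderation that of 5, and of 1 each with median centring, robust variances and values on at least 2 arrays. The absence of intensities leaves the signal over background unknown for every member, among them Kif4, Kif26b, Kif27, Kif20b and Kif7, which had the 5 largest SDs.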
